A study of Homo sapiens with 6 samples.

Results

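The zinc finger genes of chromosome 19 were followed through the histone mark peak lists of HSC3 cells, an established line of oral squamous cell carcinoma. They were defined as the protein-coding genes on chromosome 19 of the GENCODE annotation of hg19 whose symbol is ZNF and a number, with at most a letter after it. This rule gave 246 of 20098 protein-coding genes, and 3 read-through symbols that join such names with a hyphen were left out. Cells had been transfected with a control siRNA (siCONT) or with siDLEU1-2 (siDLEU1), which targets the lncRNA DLEU1, and chromatin was collected 72 h later. No other treatment or genotype separated the groups. H3K27ac and H3K4me3 were each profiled by ChIP-seq in 1 library per siRNA. There are no replicates, and therefore no tests and no p-values. Because the siRNA acts on a transcript, the peak lists do not measure the knockdown itself.

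Most human zinc finger genes of this kind encode a KRAB domain followed by an array of C2H2 fingers. The fingers bind DNA, often in transposable elements, and the KRAB domain recruits the corepressor TRIM28, which brings in SETDB1 to methylate H3K9 and HP1 proteins to keep the site silent. Chromosome 19 carries the largest collection of these genes in the human genome, arranged in clusters that arose by tandem duplication. H3K4me3 and H3K27ac mark the promoters of active genes, and promoters of several KRAB zinc finger genes are known to gain DNA methylation in carcinomas.

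Genes with a deposited region within 1 kb of any annotated transcription start site (TSS) were called marked. The level of a mark was first given as the percentile rank of fold enrichment within its own list, where 100 is the top of the list and 0 stands for an unmarked gene, since fold enrichment depends on the library and its control. The number of fragments at the summit of a region was also solved from its fold enrichment and p, with the peak caller's formulas assumed. From this number the coverage was computed as a multiple of the average over the genome of that library, and the local control signal as a multiple of its own average. The lowest control signal solved in a list was taken as this average. It was equivalent to 0.439 to 0.532 control fragments over the 4 lists, so that multiples of the control rest on few fragments. Summits had a median of 41 to 75 fragments over the 4 lists, which held between 17672 and 58582 regions. Of 5 squamous markers (KRT5, KRT14, KRT17, TP63 and EGFR), 5 carried H3K27ac in both lists, whereas the blood genes PTPRC and CD3E and the fibroblast gene COL1A2 had no region.

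In siCONT cells, 149 of the 246 chromosome 19 ZNF genes carried H3K27ac, or 60.6% with a Wilson 95% interval of 54.3 to 66.5%, beside 61.5% of all protein-coding genes. H3K4me3 was found at 145 members, or 58.9% with an interval of 52.7 to 64.9%, beside 61.2% of all protein-coding genes. These intervals cover the counting of genes only. Both marks lay at 143 members, H3K27ac alone at 6, H3K4me3 alone at 2 and neither at 95. The 6 genes with H3K27ac alone were ZNF878, ZNF442, ZNF724, ZNF875, ZNF221 and ZNF175, and the 2 with H3K4me3 alone were ZNF566 and ZNF233, all named after their values were seen. The same 95 members had no region in any of the 4 lists (38.6%, beside 34.9% of all protein-coding genes), and 138 had a region in all 4 (beside 55.8%). Among the 262 ZNF genes on other chromosomes, the share with H3K27ac was 82.8%, and among the 1234 other protein-coding genes of chromosome 19 it was 58.0%. No test was made of these shares. Neighbouring genes can share a region: the 149 members lay on 145 distinct H3K27ac regions, and 26 of them shared their region with a protein-coding gene outside the group.

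Among members with H3K27ac, the median percentile was 61.1 in siCONT, below the 71.4 of all marked protein-coding genes. For H3K4me3 it was 76.6 beside 83.2. Other marked protein-coding genes of chromosome 19 were at 63.9 for H3K27ac and 80.7 for H3K4me3, and marked ZNF genes on other chromosomes at 70.2 and 81.8. The members thus had both marks about as often as all protein-coding genes, at regions of lower median rank. A lower H3K27ac rank was also seen at the other genes of chromosome 19.

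To show the sequences at marked and unmarked starts, 300 bases of promoter (250 before and 50 after the RefSeq start, GRCh38.p14) are given for 3 genes with both marks and 3 with none. ZNF587 had the highest H3K27ac rank, ZNF274 encodes a KRAB protein known to bring SETDB1 to zinc finger genes, and ZNF791 shared the largest rise in H3K27ac rank. ZNF582 and ZNF154 are often methylated in carcinomas, and ZNF91 encodes a repressor of SVA retrotransposons. Capitals mark CpG dinucleotides.
ZNF587, chr19:57849609-57849908, plus strand, both marks: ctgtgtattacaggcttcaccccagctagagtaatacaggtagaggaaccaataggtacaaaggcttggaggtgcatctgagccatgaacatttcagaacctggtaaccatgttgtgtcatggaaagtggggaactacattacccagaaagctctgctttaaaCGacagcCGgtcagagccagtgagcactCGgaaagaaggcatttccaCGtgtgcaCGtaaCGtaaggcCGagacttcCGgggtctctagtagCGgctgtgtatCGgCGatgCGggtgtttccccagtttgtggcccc
ZNF274, chr19:58182811-58183110, plus strand, both marks: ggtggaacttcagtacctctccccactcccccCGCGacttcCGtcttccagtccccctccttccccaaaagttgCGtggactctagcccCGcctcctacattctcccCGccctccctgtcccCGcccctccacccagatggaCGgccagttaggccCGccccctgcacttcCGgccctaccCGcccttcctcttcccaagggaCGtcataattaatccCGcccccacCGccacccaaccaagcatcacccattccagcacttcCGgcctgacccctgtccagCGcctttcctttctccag
ZNF791, chr19:12610670-12610969, plus strand, both marks: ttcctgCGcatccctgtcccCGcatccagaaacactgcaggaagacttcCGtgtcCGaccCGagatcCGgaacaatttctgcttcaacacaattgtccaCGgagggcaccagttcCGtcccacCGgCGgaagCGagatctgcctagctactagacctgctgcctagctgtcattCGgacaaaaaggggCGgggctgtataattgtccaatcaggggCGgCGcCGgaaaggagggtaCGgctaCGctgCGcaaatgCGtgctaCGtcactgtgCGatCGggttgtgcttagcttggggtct
ZNF582, chr19:56393485-56393784, minus strand, no mark: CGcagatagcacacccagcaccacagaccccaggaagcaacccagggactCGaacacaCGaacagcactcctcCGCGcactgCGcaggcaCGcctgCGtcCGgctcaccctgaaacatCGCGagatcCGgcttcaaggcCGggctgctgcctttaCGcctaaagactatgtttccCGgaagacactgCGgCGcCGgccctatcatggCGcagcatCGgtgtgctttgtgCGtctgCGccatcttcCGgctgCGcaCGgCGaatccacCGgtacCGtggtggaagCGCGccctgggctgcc
ZNF154, chr19:57709155-57709454, minus strand, no mark: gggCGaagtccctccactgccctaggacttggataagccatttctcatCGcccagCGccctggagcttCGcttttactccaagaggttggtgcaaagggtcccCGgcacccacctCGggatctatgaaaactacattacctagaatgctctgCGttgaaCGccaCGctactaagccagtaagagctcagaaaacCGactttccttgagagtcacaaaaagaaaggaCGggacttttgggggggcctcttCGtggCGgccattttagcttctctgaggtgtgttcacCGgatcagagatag
ZNF91, chr19:23395422-23395721, minus strand, no mark: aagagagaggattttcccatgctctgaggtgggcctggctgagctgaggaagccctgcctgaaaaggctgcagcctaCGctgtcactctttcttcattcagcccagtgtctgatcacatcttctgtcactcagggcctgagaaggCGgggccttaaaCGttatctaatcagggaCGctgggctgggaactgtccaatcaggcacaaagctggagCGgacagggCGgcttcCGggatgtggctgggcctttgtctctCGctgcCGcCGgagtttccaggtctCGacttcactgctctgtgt
The unmarked ZNF582 promoter held 30 CpGs, more than any of the marked 3, which held 12 in ZNF587, 16 in ZNF274 and 23 in ZNF791. ZNF154 held 14 and ZNF91 held 11.

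RefSeq promoters were matched by symbol for 216 of the 246 members. The median number of CpGs was 22 (quartiles 17 and 26) at the 128 matched members with both marks and 17 (quartiles 11 and 25.75) at the 82 with none. Unmarked members therefore overlapped widely with marked ones in CpG content. Over all protein-coding genes the corresponding medians were 27 and 7. Unmarked members thus had more CpGs than unmarked genes at large, and marked members had fewer than marked genes at large. ZNF genes on other chromosomes shared this pattern, with medians of 24 and 19. The other protein-coding genes of chromosome 19 had 27 and 9.

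**Figure D1:**
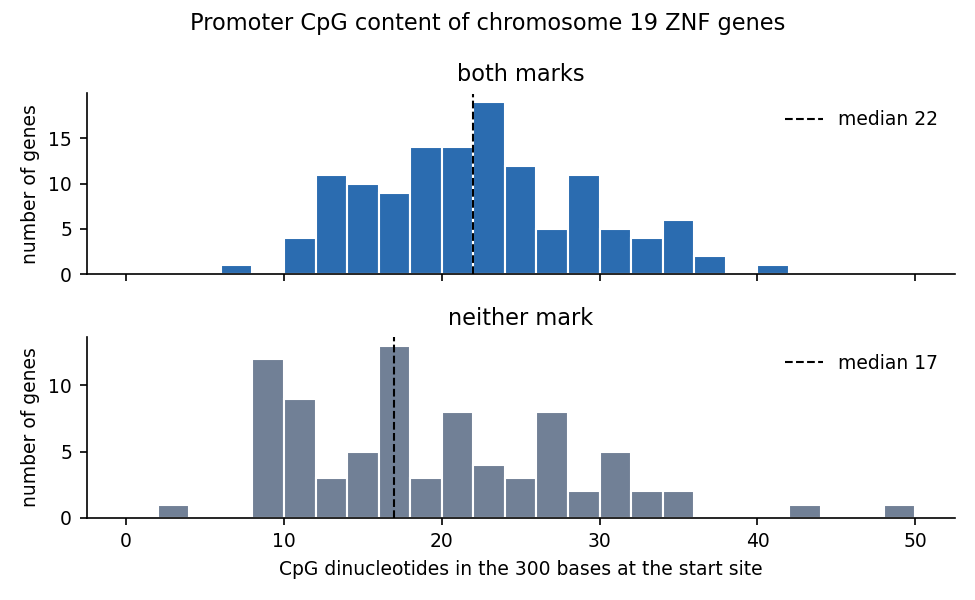
Histograms of the number of CpG dinucleotides in the 300-base promoter (x axis) by number of chromosome 19 ZNF genes (y axis), for genes with both marks in siCONT (top) and with neither (bottom). Dashed lines are the medians, 22 and 17, and the histograms overlap over most of their range.

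Short motifs were searched on both strands of these promoters. The ETS core CCGGAAG was found in 45.4% of the member promoters, against 14.4% of the 15289 promoters of protein-coding genes and 10.7% of all 27305 promoters. Its share was 46.1% at members with both marks and 45.1% at members with none. The TATA box TATAAA was found in 1.85% of the member promoters, against 9.60% of protein-coding and 11.95% of all promoters. For the SP core GGGCGG the share was 67.6% of members, 59.3% of protein-coding and 44.6% of all promoters, and for the NF-Y core CCAAT it was 53.7%, 36.6% and 35.7%. The AP-1 motif TGAGTCA was in 2.31% of members, 3.68% of protein-coding and 4.92% of all promoters. The YY1 core AAGATGG was in 7.87%, 6.43% and 6.06%. Between members with both marks and members with none, the YY1 core was in 13 of 128 and 3 of 82 promoters (10.2% and 3.66%), the SP core in 71.1% and 63.4%, the NF-Y core in 53.1% and 52.4%, AP-1 in 3.12% and 1.22% and TATAAA in 1.56% and 2.44%. Matches can overlap, as CCGGAAG and AAGATGG may over the letters AAG, and a match describes a sequence, not a bound factor.

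Members were split into 16 groups wherever the gap between neighbouring genes passed 1 Mb. Unmarked genes were spread unevenly over these groups. In the group of 37 genes from ZNF101 to ZNF254 (chr19:19779605-24312770, hg19), 7 had H3K27ac in siCONT. These were ZNF101, ZNF430, ZNF431, ZNF43, ZNF724, ZNF675 and ZNF254, and ZNF91 was among the 30 with neither mark. In the group of 26 genes from ZNF565 to ZNF573 (chr19:36673178-38307940), 7 had H3K27ac, among them ZNF146, which encodes a protein of fingers with no KRAB domain, and ZNF260. By contrast, 44 of 59 genes carried H3K27ac in the group nearest the end of the long arm, from ZNF628 to ZNF446 (chr19:55987984-58992597), at a median percentile of 80.1. The group from ZNF653 to ZNF791 (chr19:11594242-12750912) had 20 of 25, the group from ZNF575 to ZNF296 (chr19:44029649-45579736) had 18 of 24, and the group from ZNF175 to ZNF331 (chr19:52074536-54083523) had 23 of 39. Few other protein-coding genes lie in the sparsely marked spans. They were marked in 1 of 3 cases in the span from ZNF101 to ZNF254 and in 0 of 6 in the span from ZNF565 to ZNF573, and in 21 of 51 in the span from ZNF628 to ZNF446.

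**Figure D2:**
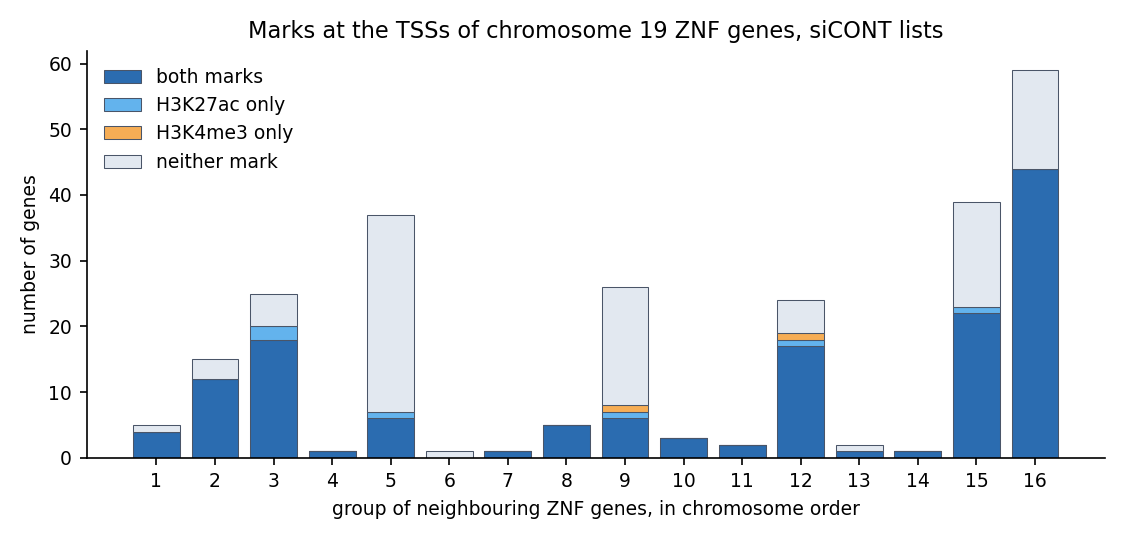
Number of chromosome 19 ZNF genes (y axis) in each of 16 groups of neighbouring genes in chromosome order (x axis), coloured by the marks at their TSSs in the siCONT lists. Group 5 has 7 of 37 and group 9 has 7 of 26 genes with H3K27ac, whereas group 16 has 44 of 59.

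Unmarked genes also sat next to marked ones. In the ZNF628 to ZNF446 group, the run ZNF582, ZNF583, ZNF667, ZNF471, ZNF470, ZNF71 and ZNF835 had no region, and it lay between ZNF444 and ZNF264, which had both marks. The pair ZNF154 and ZNF671 lay unmarked between ZNF551 and ZNF776. All 9 genes of a list known to be often methylated in carcinomas (ZNF582, ZNF154, ZNF671, ZNF132, ZNF331, ZNF382, ZNF577, ZNF677 and ZNF471) had no H3K27ac or H3K4me3 region at any TSS in the 4 lists. No region in any of the 4 lists was also the state of 38.6% of all members and 34.9% of all protein-coding genes. The list was chosen with earlier results of these data known, and some of its genes are neighbours. The count is therefore a description and no test. DNA methylation was not measured in these libraries. A gene without a region was below the threshold of the peak caller, and its level is not known.

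The question of the comparison was whether the marks at these genes differed after depletion of DLEU1. H3K27ac was found at 142 members in siDLEU1, after 149 in siCONT. The 7 genes with H3K27ac in siCONT only made up 4.70% of the 149, beside 5.14% over all protein-coding genes, the background share given likewise below, and 0 members had it in siDLEU1 only, beside 0.362%. H3K4me3 was found at 142 members in siDLEU1, with 4 in siCONT only (background 3.07%) and 1 in siDLEU1 only (background 3.83%). The 4 were ZNF566, ZNF780B, ZNF233 and ZNF772, and the 1 was ZNF724, named after their values were seen. With all listed regions counted, gains and losses of regions at the members were thus close to or below the background.

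The 7 genes with H3K27ac in siCONT only ranged from percentile 1.73 to 45.8. ZNF430 ranked highest among them, with 57 fragments at its summit and a coverage of 38.3 times the average. Its H3K4me3 was at percentile 47.4 in siCONT and 18.0 in siDLEU1, with a coverage of 17.6 and 18.9. ZNF784 followed at percentile 33.6, with a coverage of 39.0, and its H3K4me3 coverage was 38.5 and 48.8. Both genes therefore kept an H3K4me3 region at a coverage no lower than in siCONT. ZNF878 (20.9), ZNF442 (19.5), ZNF114 (14.4), ZNF221 (8.60) and ZNF875 (1.73) had lower percentiles, and from 21 to 30 fragments at the summit.

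H3K27ac coverage was lower in siDLEU1 at 142 of the 142 members with a region in both lists, beside 98.5% of all protein-coding genes. Its median over the members was 68.2 times the average in siCONT and 39.7 in siDLEU1. At the 134 members whose regions in the lists overlapped, a choice made after the data were seen, it was lower at 134. The median ratio was 0.618 for the members and 0.616 for all protein-coding genes, and on the log2 scale the members' median was -0.69 (quartiles -0.84 and -0.54). Regions were also narrower at 136 of 142 members (background 90%), with median widths of 881.5 bp and 695 bp. The lower H3K27ac at the members was therefore as large as that at genes in general, and whether it came from the siRNA or from the efficiency of the 2 libraries cannot be told apart. At the 17 genes of a list of KRAB corepressors, coverage was lower at 17, with a median ratio of 0.617. TRIM28, the corepressor that KRAB domains bind, had an H3K27ac coverage of 85.4 and 55.3.

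H3K4me3 coverage was higher in siDLEU1 at 116 of 141 members, beside 80.8% of all protein-coding genes. The median was 37.5 in siCONT and 51.4 in siDLEU1, a median ratio of 1.23 for the members and 1.26 for all genes. It was higher at 109 of the 129 members whose regions overlapped. Regions were narrower at 99 of 141 members (background 61.9%). Median coverage thus differed in opposite directions for the marks, in the members as in all genes. At 25 of the 141 members H3K4me3 coverage was lower in siDLEU1. Whether the shift in H3K4me3 came from the siRNA or from the libraries cannot be told apart either. Of the 17 corepressor genes 16 had H3K4me3, and coverage was higher at 14 of them.

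**Figure D3:**
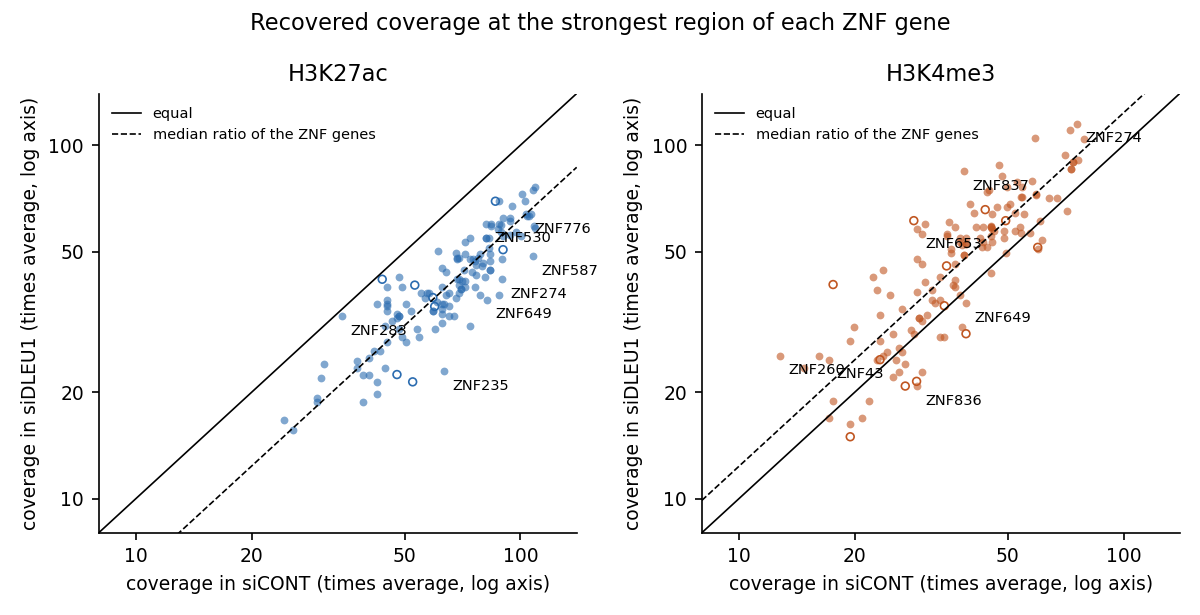
Coverage at the strongest region of each chromosome 19 ZNF gene in siCONT (x axis) and siDLEU1 (y axis), both as multiples of the genome-wide average on log axes, for H3K27ac (left, 142 genes) and H3K4me3 (right, 141 genes). Every H3K27ac point lies below the line of equality, and 116 H3K4me3 points lie above it. Dashed lines are the members' median ratios, 0.618 and 1.23, and open points are genes whose regions in the lists did not overlap.

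Coverage ratios of single members were spread around the common ratio. Genes with extreme coverage ratios were chosen after their values were seen, from those whose regions in the lists overlapped, and exact 95% intervals cover the counting of fragments only. These intervals are not adjusted for the choice of extremes, and no departure from the common ratio was tested. ZNF235 had an H3K27ac coverage of 63.19 and 22.96 and an H3K4me3 coverage of 42.7 and 51.4, in siCONT and siDLEU1. Its H3K27ac ratio, 0.363 (0.248 to 0.525), was the lowest of all members, while its H3K4me3 ratio of 1.20 (0.878 to 1.65) was near the median. ZNF226, a neighbour of ZNF235 in the same group, had an H3K27ac coverage of 73.9 and 30.8 and an H3K4me3 coverage of 45.1 and 43.6. At ZNF235 and ZNF226 the control signal was at its average in both lists, so that the lower fold enrichment of H3K27ac there came with coverage and not with the control. By contrast, ZNF283 had an H3K27ac coverage of 34.3 and 32.9, a ratio of 0.959 (0.652 to 1.42). ZNF799 had 45.0 and 39.7, a ratio of 0.880 (0.626 to 1.24). These were the smallest falls among members with overlapping regions, and ZNF283 lies in the group that holds ZNF235 and ZNF226.

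For H3K4me3, ZNF837 had the largest ratio among these, with a coverage of 38.5 in siCONT and 84.6 in siDLEU1. ZNF653 had 28.96 and 57.9, beside an H3K27ac coverage of 50.4 and 27.7. ZNF836 had the lowest ratio, at 29.0 and 20.8, beside an H3K27ac coverage of 67.2 and 32.9. ZNF836 was among the 25 members whose H3K4me3 coverage was lower in siDLEU1, and both of its marks were therefore lower.

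The rank of fold enrichment gave a wider spread than coverage. The median change in H3K27ac percentile was -5.47 points over the members with H3K27ac in siCONT, beside -4.32 over all protein-coding genes. It fell by 20 points or more at 29 members, or 19.5% of 149 (background 18.8%), and rose by as much at 13, or 8.72% (background 6.97%). For H3K4me3 the median change was 0.463 points beside 0.371, with 17 members (11.6% of 146) falling by 20 points or more (background 8.31%) and 11 (7.53%) rising (background 8.64%). Of the 29 members with an H3K27ac fall, 8 also fell by 20 points in H3K4me3 (background 18%), and of the 13 with a rise, 2 also rose (background 24.4%). The shares for H3K27ac lay within 2 points of the background, and no test was made of these or of the H3K4me3 shares.

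Fold enrichment divides the ChIP signal by the local control signal. This control was itself solved from fold enrichment and p, so that it is tied to the changes in rank by arithmetic. The counts below therefore describe which part of the ratio differed and do not test a cause. Of the 26 members whose H3K27ac percentile fell by 20 points with a region in both lists, 24 had a higher control signal in siDLEU1 (background 80.6%) and 0 a lower one. Of the 13 that rose, 13 had a lower control signal in siDLEU1 (background 91.3%). For H3K4me3, 13 of 15 falling members had a higher control signal (background 76.1%) and 11 of 11 rising members a lower one (background 70.9%). Among the 38 members whose control signal was the same in both H3K27ac lists within 0.1 on the log2 scale, 2 fell (background 9.53%) and 0 rose (background 1.64%) by 20 points. Ranked by coverage in place of fold enrichment, H3K27ac fell by 20 points at 17 members (background 10.7%) and rose at 0 (background 1.24%), and H3K4me3 fell at 10 (background 5.44%) and rose at 6 (background 5.79%). Of the 29 members that fell in H3K27ac by fold enrichment, 9 also fell by coverage (background 36.7%), and of the 13 that rose, 0 also rose (background 11.2%). For H3K4me3 these counts were 6 of 17 (background 48.6%) and 1 of 11 (background 48.9%).

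**Figure D4:**
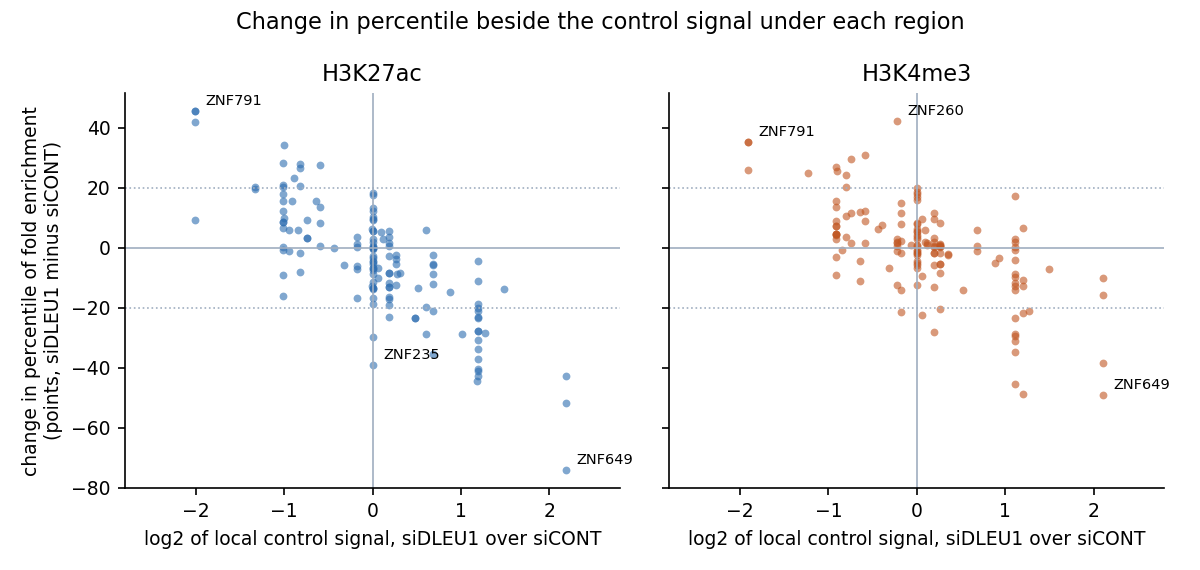
Change in percentile of fold enrichment (y axis, points, siDLEU1 minus siCONT) against the log2 ratio of the local control signal between siDLEU1 and siCONT (x axis), for each chromosome 19 ZNF gene with a region in both lists of H3K27ac (left) or H3K4me3 (right). Dotted lines mark 20 points. Points fall from upper left to lower right: the 13 members above 20 points in H3K27ac have a lower control signal in siDLEU1. The control signal was solved from the same fold enrichment, so the axes are not independent.

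ZNF649, which encodes a KRAB zinc finger repressor, had the largest fall in H3K27ac rank. Its percentile was 89.0 in siCONT and 14.9 in siDLEU1 for H3K27ac, and 82.5 and 33.3 for H3K4me3. In the same order its coverage was 82.0 and 36.5 for H3K27ac and 38.9 and 35.8 for H3K4me3. The local control signal beneath its H3K27ac region was at its average in siCONT and 4.56 times its average in siDLEU1. That multiple is equivalent to only 2 control fragments. H3K27ac at ZNF649 thus ranked lower by either measure, by -27.9 points in coverage rank, with a coverage ratio of 0.445 (0.327 to 0.602), while the coverage ratio of H3K4me3 was 0.919 (0.641 to 1.31). ZNF274 likewise ranked lower by either measure for H3K27ac. Its percentile was 92.9 and 50.3 and its coverage 89.4 and 41.7, whereas its H3K4me3 coverage was 75.5 and 115.1, the highest of the members in siDLEU1.

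ZNF43, a member of the sparsely marked group around ZNF91, went from percentile 52.6 to 0.75 for H3K27ac and from 45.9 to 7.42 for H3K4me3. Its coverage was 44.4 and 23.5 for H3K27ac and 17.1 and 24.7 for H3K4me3. By coverage, then, H3K27ac at ZNF43 was lower, at a ratio of 0.529 (0.354 to 0.785), and H3K4me3 was higher. ZNF20 went from 56.9 to 12.4 in H3K27ac percentile with a coverage of 65.2 and 35.0. ZNF530 went from 88.6 to 45.7 with a coverage of 81.3 and 60.0, a ratio above the members' median. A large fall in rank therefore went with coverage ratios on both sides of the median.

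The largest rise was shared by ZNF490 and ZNF791, 2 genes on opposite strands that share a region. Their H3K27ac percentile was 47.1 in siCONT and 92.5 in siDLEU1, and their H3K4me3 percentile 51.5 and 86.5. Their H3K27ac coverage, however, was 81.3 and 54.8, and their H3K4me3 coverage was 38.9 and 52.7, both within the quartiles of the members' ratios. The control signal at the H3K27ac region was 4.02 times its average in siCONT, equivalent to only 2 control fragments, and at its average in siDLEU1. ZNF823 went from 42.8 to 84.6 with a coverage of 73.9 and 47.5, ZNF549 from 53.7 to 87.8 with 61.2 and 50.1, and ZNF225 from 59.2 to 87.3 with 67.9 and 49.6. Coverage of H3K27ac was thus lower in siDLEU1 at each of the 5 genes that rose most in rank.

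For H3K4me3, the genes with the largest falls in rank after ZNF649 were ZNF468, ZNF563, ZNF43 and ZNF844. ZNF468 went from percentile 54.9 to 6.10 with a coverage of 27.1 and 24.1, ZNF563 from 56.5 to 11.1 with 20.9 and 16.9, and ZNF844 from 45.9 to 11.1 with 17.1 and 16.9. ZNF260 had the largest rise, from 6.46 to 48.5, and its coverage went from 12.8 to 25.4. Its coverage ratio was 1.98 (1.18 to 3.36), with H3K27ac at 30.3 and 21.9. ZNF615 rose from 23.6 to 54.4 with a coverage of 14.7 and 23.4, and ZNF17 from 45.3 to 75.04 with 22.8 and 39.0. The rises in H3K4me3 rank at ZNF260, ZNF615 and ZNF17 went with higher coverage.

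The members with the highest H3K27ac rank in siCONT lay in the ZNF628 to ZNF446 group. ZNF587 and ZNF587B were both at percentile 98.1, with a coverage of 107.6 in siCONT. In siDLEU1 they were at 61.1 and 84.3, with a coverage of 48.5 and 74.6. ZNF776 was at 97.4 in both lists with a coverage of 103.5 and 63.7, ZNF8 at 95.6 and 80.7 with 104.2 and 63.1, and ZNF211 at 94.98 and 97.96 with 94.8 and 67.3. ZNF587 thus stood apart from its paralogous neighbour ZNF587B in siDLEU1, and reads that match both copies could have been placed at either. Of the other members with known roles, ZNF146 was at 72.0 and 75.2 with a coverage of 83.4 and 44.3, and ZNF296, which has no KRAB domain, at 53.4 and 65.7 with 45.0 and 36.5. The neural gene ZNF536 had no region in any list.

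H3K27ac passed percentile 90 at 15 of the 149 marked members in siCONT (background 18.9% of marked genes), and at 18 of 142 in siDLEU1 (background 17.5%). Over all genes the count went from 2337 to 2055. The 6 members above it in both lists (background 9.74%) were ZNF805, ZNF416, ZNF211, ZNF776, ZNF329 and ZNF544, named after their values were seen, and each lies in the ZNF628 to ZNF446 group. At these 6 genes H3K27ac coverage ran from 84.0 to 103.5 in siCONT and from 55.3 to 67.3 in siDLEU1. Lower coverage in siDLEU1 was found at 98.5% of all protein-coding genes with a region in both lists. H3K4me3 coverage at ZNF544 was 48.4 and 82.0, and at ZNF329 it was 44.6 and 74.8. Both genes thus had H3K27ac that was lower and H3K4me3 that was higher in siDLEU1.

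The shift in H3K27ac coverage was negative in each of the larger groups of neighbours. Its median on the log2 scale was -0.63 in the ZNF101 to ZNF254 group and -0.82 in the ZNF565 to ZNF573 group. It was -0.68 in the ZNF653 to ZNF791 group, and likewise in the ZNF575 to ZNF296 group. The ZNF175 to ZNF331 group had -0.77 and the ZNF628 to ZNF446 group -0.62. The sparsely marked groups, ZNF101 to ZNF254 and ZNF565 to ZNF573, therefore had medians on both sides of the -0.69 of all members. Near ZNF235, with its ratio of 0.363, the ratio was 0.416 at ZNF226, 0.501 at ZNF227 and 0.730 at ZNF225, and 0.959 at ZNF283 in the same group.

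**Figure D5:**
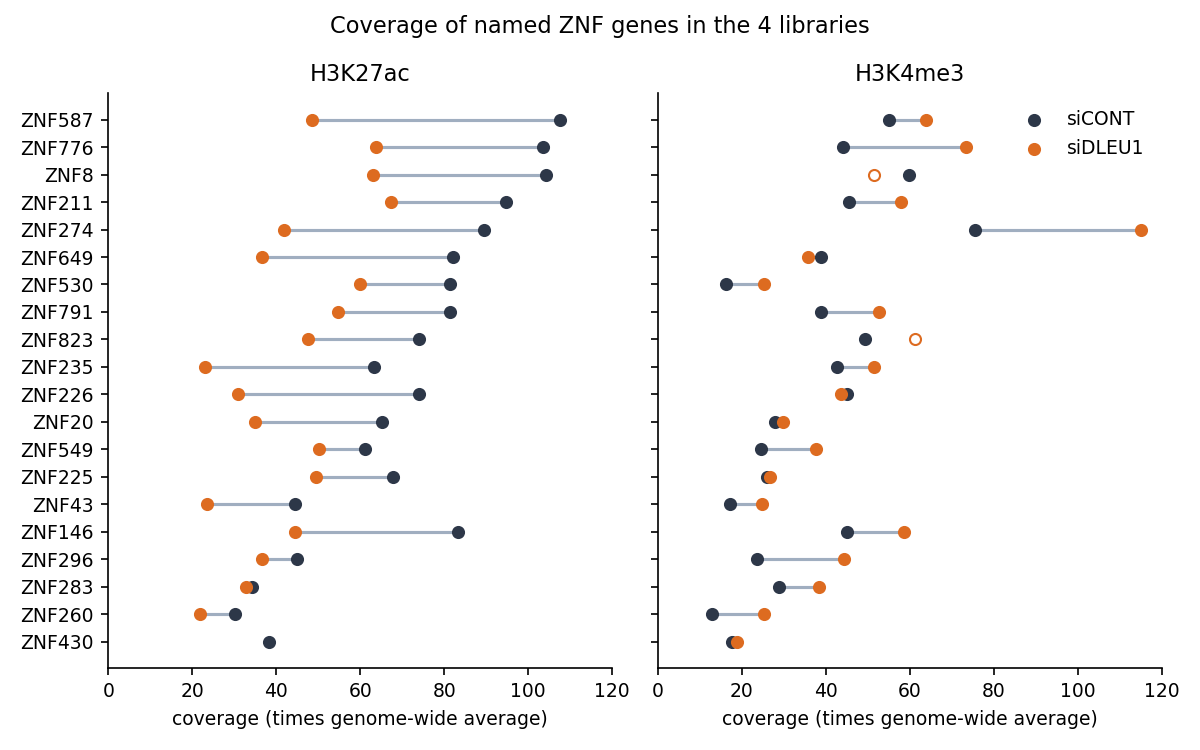
Coverage, as a multiple of the genome-wide average of each library, at 20 chromosome 19 ZNF genes for H3K27ac (left) and H3K4me3 (right), with siCONT in dark and siDLEU1 in orange. H3K27ac is lower in siDLEU1 at each gene with both points, from 107.6 and 48.5 at ZNF587 to 34.3 and 32.9 at ZNF283. ZNF430 has no siDLEU1 point for H3K27ac because no region was listed, and open points without a line are regions that did not overlap the siCONT region.

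Few H3K4me3 regions lay inside the bodies of the members and away from their own TSSs. There were 26 such regions in 14 members in siCONT, or 5.69% of the members (background 28.5%), and 34 in 18 members in siDLEU1, or 7.32% (background 27.7%). Per Mb of gene body this was 3.46 and 4.52 regions, beside 15.8 and 14.7 over all protein-coding genes. It was 10.7 and 9.90 in ZNF genes on other chromosomes, and 29.5 and 24.9 in other protein-coding genes of chromosome 19. The regions in members covered 14.5 kb and 16.0 kb in all. Among them, 8 of 26 and 4 of 34 lay within 1 kb of a TSS of another gene. Of the 26 regions in siCONT, 7 had no overlap of at least 1 bp in the other list (background 33.7%), and of the 34 in siDLEU1, 16 had none (background 25.6%). The shares overlapped were 73.1% (Wilson interval 53.9 to 86.3%) and 52.9% (36.7 to 68.5%). These intervals treat regions as independent, although several lay in the same gene. In siDLEU1, ZNF675 held 7 and ZNF577 held 4 of the 34, so the share there rests partly on these genes. Most lay beyond the canonical transcript, in parts of the gene reached by other transcripts only (17 and 22 regions), or in introns (7 and 9). Only 1 region in each list touched the last coding exon, which holds the zinc fingers in genes of this family.

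That region was in ZNF211, at chr19:58153245-58153857 in siCONT (hg19), with a coverage of 28.5 and 13.0 in siCONT and siDLEU1, and it had no H3K27ac. A second exonic region of ZNF211, at chr19:58154062-58154878, had a coverage of 29.9 and 18.9. Both were lower in siDLEU1, while the TSS of ZNF211 had a higher H3K4me3 coverage, at 45.6 and 57.9. The strongest region inside a member was in ZNF586, at chr19:58314984-58317352. It was at percentile 97.4 in siCONT and 93.5 in siDLEU1 with a coverage of 72.2 and 68.9, and it carried H3K27ac in both. A region in ZNF814, at chr19:58361144-58362023, lay within 1 kb of a TSS of another gene, with a coverage of 55.1 and 63.7. In ZNF709 a region at chr19:12606321-12606821 had a coverage of 31.3 and 39.7 and carried H3K27ac in both, and ZNF584 held 3 regions in each list.

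Weaker regions in gene bodies changed in number between the lists. ZNF507 had 4 intronic regions in siCONT and 1 in siDLEU1. ZNF675, named after its values were seen, had 2 and 7, and ZNF577 had 1 and 4, all over 50 kb from an annotated TSS of the gene. In ZNF577 the region at chr19:52310628-52310844 in siCONT, with 25 fragments and a coverage of 11.9, was overlapped in siDLEU1 by one at chr19:52310053-52311612, with 54 fragments and a coverage of 35.1. ZNF577 carried no mark at its TSSs, so that its H3K4me3 in these lists lay inside the gene alone. ZNF627 had 3 regions and 1, each within 1 kb of a TSS of another gene.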

How the data were processed

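HSC3 cells were analysed by ChIP-seq of H3K27ac and H3K4me3, in 1 library per siRNA. Reads from an Ion Proton were aligned to hg19 by the authors (bowtie2), who called peaks per library (MACS2) and deposited 4 peak lists. Its settings and control are not given in the sources used here, and the 2 input libraries were not analysed. The fold ratio in the deposited lists is the summit signal over the local background, with 1 added to both. The deposited −log10 p and −log10 q are those of MACS2, and the deposited score was not used. The summit offset in the deposited lists was used for distances. How reads that match several near-identical zinc finger genes were placed is not given in the sources used here.

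Peaks on chromosomes 1 to 22 and X were set against GENCODE 44 on GRCh37. For each gene and list, the region with the highest fold enrichment within 1 kb of any TSS was used. In members with a region in both lists, these overlapped at 134 of 142 for H3K27ac and 129 of 141 for H3K4me3. Fragments and background were solved from fold enrichment and p, with a solution for 100% of the regions in each list, and the procedure was tested on simulated lists. More than 1 solution was found for 2.20% to 4.61% of the regions over the 4 lists. There the solution nearest to a whole number of fragments was kept. The depth in reads is unknown. Members and gene lists were chosen with earlier results of these data known. Named genes were the 5 with the largest fall and rise in each mark, those with H3K27ac in 1 list only, the 5 highest in H3K27ac, the 5 with the strongest and the 5 with the most gene-body regions, and fixed lists. Others are said to have been chosen after their values were seen. A marker gene of the fixed lists is not reported here. With 1 library per condition no test was made. The alternatives tried were regions with a −log10 q of 10 or more, windows of 3 and 5 kb, 1 TSS per gene, read-through symbols, other rankings, an overlap covering 50% or more of both regions, and other definitions of gene-body regions. Rankings for single genes and the restriction to overlapping regions were added after the data were seen. Python 3.11.15, numpy 2.4.6, pandas 2.3.3, scipy 1.17.1 and matplotlib 3.10.9 were used.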

Additional observations from a re-analysis of the deposited data

How the results depend on the processing

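No paired analysis was possible because each siRNA and mark has 1 library only, and for the same reason no replicate could be left out. Of 82 values under an alternative for the counts, medians and shares, 69 stayed within 1.5 times a count, 5 points of a median or the interval of a share. With a −log10 q of at least 10, members with H3K27ac in siCONT only came to 25, the median H3K27ac change to -12.3 points, H3K27ac falls of 20 points to 54, H3K4me3 rises of 20 points to 27, and gene-body regions to 8 in siCONT and 10 in siDLEU1. No share over all protein-coding genes is given at this cut, so these counts cannot be set against a background. Ranked by −log10 p, 7 members rose by 20 points in H3K27ac. Ranked by coverage, H3K27ac fell at 17 and rose at 0 members, and H3K4me3 fell at 10 and rose at 6. When 50% or more of both regions had to overlap, the shares of gene-body regions overlapped were 46.2% and 35.3%. For single genes, 40 changes in rank were also taken by −log10 p or by coverage, a choice made after the data were seen. Of these, 6 stayed within 5 points, 32 moved further and 2 turned. The H3K27ac rise at ZNF490 and ZNF791, for example, went from 45.4 to 3.22 points by coverage. Ranked by coverage, the change turned at ZNF530 for H3K27ac (9.47 points) and at ZNF43 for H3K4me3 (12.6 points). The cause was not tested. With 1 library each, differences between siRNAs cannot be told apart from differences between libraries, and a gene with no listed region has no known level.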
